A study of Homo sapiens with 10 samples.

Results

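Stem and progenitor transcription factors were followed at the mRNA level in NB4 cells, a line derived from acute promyelocytic leukaemia. The group holds 10 protein-coding genes, picked by symbol: LYL1, TAL1, LMO2, GATA2, RUNX1, CBFB, MYB, MEIS1, HHEX and IKZF1. All 10 were found, each in 1 row, among the 19975 protein-coding genes and 60603 genes listed in each of 2 tables. Rows were taken by symbol and gene type alone. In the GSE1 knockdown experiment, cells carried the empty pLKO.1 puro lentiviral vector (EV) or the same vector with the hairpin shA1 or shB2 against GSE1, and RNA was taken 48 h after transduction. In the LSD1 inhibitor experiment, cells that carried no lentiviral vector were kept for 24 h with DMSO or with 2 µM MC2580, an inhibitor of the histone demethylase LSD1. Each of the 5 groups has 2 libraries, described by the study as independent biological replicates.

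The quantity described is the authors' base mean, the average over all libraries of an experiment of the read counts divided by size factors. In the knockdown table it is listed once under each hairpin, with identical values in all 60603 rows, so it belongs to neither hairpin alone. It is read here, as this quantity is defined, as pooling EV with both hairpins (6 libraries), or DMSO with MC2580 (4 libraries). The tables themselves do not state which libraries were averaged. A base mean therefore gives the level of a gene in an experiment and not in a group, and it comes without a value per library, a standard deviation or a depth. No comparison of a hairpin with EV or of MC2580 with DMSO was made, no test was run, and no order of levels could be set against the spread between replicates. GSE1, the target of the hairpins, had a base mean of 2963 in the knockdown experiment and 4441 in the inhibitor experiment, and a value that pools EV with the hairpins does not check the knockdown. KDM1A, which encodes LSD1, stood at 7648 and 6285. Of 6 promyelocyte markers, 5 reached a base mean of 50 in each experiment, led by MPO, which encodes myeloperoxidase, at 506765 and 824818. The exception was ELANE, the neutrophil elastase gene, at 1.10 and 3.87. Of 4 stem and progenitor markers, the receptor gene FLT3 was at 895 and 576 and the receptor gene KIT at 66.3 and 17.6. CD34 was at 4.58 and 4.67, and PROM1 was at 0.0815 in the knockdown experiment and listed at 0 in the inhibitor experiment.

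In blood stem and progenitor cells, TAL1 or its relative LYL1 pairs with an E-protein on DNA, and the LIM-only protein LMO2 bridges this pair to a GATA factor and to LDB1. RUNX1 binds DNA as a heterodimer with CBFB, and together with ERG and FLI1 these proteins occupy many of the same regulatory elements, a set often called the heptad. MYB, MEIS1, HHEX and IKZF1 act beside them in progenitor growth, self-renewal and lineage choice, and several of the 10 genes are mutated, rearranged or overexpressed in acute leukaemia.

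The 10 genes lie on 10 different chromosomes, and promoter windows from RefSeq on GRCh38.p14 (250 bases before to 50 bases after a start site) were at hand for 8 of them, 12 windows in all. LMO2 and CBFB had none. The bases before the start are shown for MYB, the member with the highest level, and for MEIS1 and TAL1, the members with the lowest. A link between these bases and the levels was not tested. Each run is 5′ to 3′ on the strand of the gene. Capitals mark matches, on either strand, to the motifs searched: AGATAA for GATA factors, TGTGGT for RUNX factors, AGGAAG for ETS factors, CAGATG as an E-box, TGACAG for MEIS1, AAATCA for GFI1 and CAACTG for MYB. The last also fits the general E-box, so the same letters could be read as either. The MYB window, chr6:135181058-135181307 on the plus strand, ends at the base before the first annotated exon. The MEIS1 window, chr2:66434875-66435124 on the plus strand, lies in the gene between annotated exons. The TAL1 windows are on the minus strand. The upstream one, chr1:47232336-47232585, lies outside the GENCODE gene, and the downstream one, chr1:47231716-47231965, lies inside it between exons.
MYB: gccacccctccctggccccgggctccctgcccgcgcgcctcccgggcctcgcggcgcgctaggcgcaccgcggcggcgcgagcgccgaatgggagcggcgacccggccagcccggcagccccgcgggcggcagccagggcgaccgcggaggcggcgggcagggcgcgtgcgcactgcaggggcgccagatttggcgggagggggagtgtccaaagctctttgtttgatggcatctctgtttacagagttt
MEIS1: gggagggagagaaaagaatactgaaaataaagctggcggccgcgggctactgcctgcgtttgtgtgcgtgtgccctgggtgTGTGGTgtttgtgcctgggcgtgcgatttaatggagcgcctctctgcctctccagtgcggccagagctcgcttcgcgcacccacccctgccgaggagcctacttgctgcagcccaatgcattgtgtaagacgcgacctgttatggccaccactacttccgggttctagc
TAL1 upstream start: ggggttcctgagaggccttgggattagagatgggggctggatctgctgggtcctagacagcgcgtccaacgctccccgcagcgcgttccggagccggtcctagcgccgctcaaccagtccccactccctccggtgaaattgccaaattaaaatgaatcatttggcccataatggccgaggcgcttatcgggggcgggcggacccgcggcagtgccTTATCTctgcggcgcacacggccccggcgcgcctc
TAL1 downstream start: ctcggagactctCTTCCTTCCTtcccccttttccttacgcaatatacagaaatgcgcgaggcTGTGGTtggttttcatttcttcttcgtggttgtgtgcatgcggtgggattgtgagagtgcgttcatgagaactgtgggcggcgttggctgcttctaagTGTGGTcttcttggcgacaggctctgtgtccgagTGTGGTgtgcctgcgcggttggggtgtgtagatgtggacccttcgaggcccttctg

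The MYB run held no match and had a GC content of 75.6%. The MEIS1 run had 1 RUNX match and a GC content of 59.6%. The run before the upstream TAL1 start had 1 GATA match, beginning 35 bases before the start, and a GC content of 64.8%. The run before the downstream TAL1 start had 3 RUNX and 2 ETS matches, the ETS matches sharing bases, and a GC content of 54.8%. For comparison, GC content averaged 57.2% over the same bases of all 35116 windows. Over the full windows, the GATA motif was in 3 of the 12 (10.3% of all windows), in IKZF1, LYL1 and TAL1. The RUNX motif was in 3 (13.1% of all), in IKZF1, MEIS1 and TAL1, and the ETS motif in 6 (33.6% of all), in GATA2, HHEX, IKZF1 and TAL1. The GFI1 motif was in 1 window, of IKZF1 (13.2% of all). The CAGATG form of the E-box, the MEIS motif and the MYB motif were in 0 of the 12, against 14.7%, 15.8% and 11.4% of all windows. Apart from the MYB motif, other forms of the E-box were not searched for. These are matches of letters and not sites of binding, and their absence says only that these letters are not in these windows.

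Of the 10 genes, 9 reached a base mean of 50 in the knockdown experiment and 9 in the inhibitor experiment, where 55.9% and 55.4% of all protein-coding genes did. TAL1 was the exception in both, and MEIS1 lay just above this limit in both. In the knockdown experiment the order of the base means was MYB at 11269, IKZF1 at 7915, RUNX1 at 5573, CBFB at 5379.8, GATA2 at 3547, LYL1 at 3307, HHEX at 2816, LMO2 at 1261, MEIS1 at 57.8 and TAL1 at 38.5. In the inhibitor experiment it was MYB at 14042, LYL1 at 6275, IKZF1 at 5958, RUNX1 at 5322, GATA2 at 4327, CBFB at 3784, HHEX at 3006, LMO2 at 1533, MEIS1 at 69.6 and TAL1 at 29.9. In both experiments MEIS1 and TAL1 thus stood apart from the other 8 genes, the lowest of which was LMO2 at 1261 and 1533. The median over the 10 genes was 3427 in the knockdown experiment, against 409 over the protein-coding genes listed above 0, and 4056 against 396 in the inhibitor experiment. Because RNA was taken from whole cultures, fewer cells with a transcript and less of it per cell cannot be told apart.

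**Figure D1:**
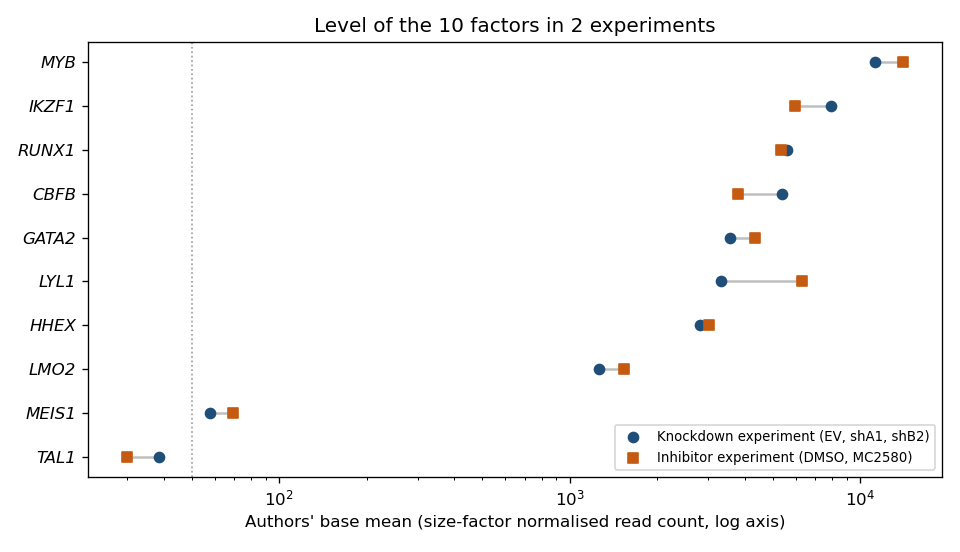
Authors' base mean of each of the 10 genes on a log axis, with a circle for the knockdown experiment and a square for the inhibitor experiment; each point is a pooled mean of its experiment, so there is no error bar, and the dotted line marks a base mean of 50. MYB is highest and TAL1 lowest in both, only TAL1 lies left of the line, and LYL1 has the longest bar between its points, from 3307 to 6275.

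Ranked among the 17337 protein-coding genes listed above 0 in the knockdown experiment, MYB exceeded 96.5% of them and IKZF1 94.5%. RUNX1 exceeded 91.0% and CBFB 90.6%, GATA2 84.9%, LYL1 83.7% and HHEX 81.1%. LMO2 exceeded 66.5%, and MEIS1 and TAL1 exceeded 36.3% and 34.3%. In the inhibitor experiment, where 17091 genes were ranked, LYL1 was at 92.5% and CBFB at 86.1%, while MYB was at 97.5% and TAL1 at 32.3%. In each experiment, 7 of the 10 genes were in the top 25% of protein-coding genes and 4 in the top 10%. The 4 were MYB, IKZF1, RUNX1 and CBFB in the knockdown experiment, and LYL1 stood in place of CBFB in the inhibitor experiment. These sets rest on base means not divided by length. Ranked per kilobase of summed exons in the knockdown experiment, IKZF1 exceeded 85.8% and RUNX1 74.4%, which left the top 10%. HHEX at 90.9% and LYL1 at 90.3% entered it, and MYB and CBFB stayed. On that scale the top 10% in the inhibitor experiment held MYB, LYL1 and HHEX, but not IKZF1 or RUNX1. 

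LYL1 and TAL1 encode closely related basic helix-loop-helix proteins, and they stood far apart in level. LYL1 (ENSG00000104903.4, chromosome 19, 13099033 to 13103161, minus strand) had a base mean of 3307 in the knockdown experiment and 6275 in the inhibitor experiment. TAL1 (ENSG00000162367.11, chromosome 1, 47216290 to 47232225, minus strand) had 38.5 and 29.9. To set genes beside each other, base means were divided by the kilobases of summed exons in GENCODE release 44. On this scale LYL1 was at 1060.2 per kb in the knockdown experiment and 2012 per kb in the inhibitor experiment. TAL1 was at 6.74 and 5.24 per kb, a ratio of LYL1 to TAL1 of 157 and 384. With the longest annotated transcript as the length, the ratio was 278 and 679. TAL2, a further relative, was at a base mean of 3.59 and 5.83. TAL1 shares 845 exon bases with a long noncoding gene on the opposite strand (ENSG00000226252), itself at 1.30 in both experiments, and the library kit does not mark strand, so reads from those bases cannot be told apart.

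LMO2 (ENSG00000135363.12, chromosome 11, 33858576 to 33892076, minus strand), the bridging protein, had base means of 1261 and 1533, or 435 and 529 per kb. Per kb of summed exons it was at 0.411 of LYL1 in the knockdown experiment and 0.263 in the inhibitor experiment. With the longest transcripts as the lengths it was at 0.284 and 0.182. Of the 11 listed partners of TAL1 and LYL1, which include LMO2, 9 had a base mean of at least 50 in each experiment. Among the E-proteins, TCF3 was highest at 1017 and 1374 per kb, followed by TCF12 at 318 and 195 per kb and TCF4 at 3.21 and 3.60 per kb. TCF3 thus made up 76.0% of the summed E-protein level per kb in the knockdown experiment and 87.4% in the inhibitor experiment. LDB1, the adaptor that LMO2 binds, was at 935 and 952 per kb, and of its stabilising partners SSBP3 was at 665 and 666, SSBP4 at 565 and 904, and SSBP2 at 57.6 and 36.8 per kb. LMO1, which can take the place of LMO2 in T-cell leukaemia, was listed at 0 in the knockdown experiment and at 0.306 in the inhibitor experiment. LYL1, TCF3, LMO2, LDB1 and GATA2, which cover each of the parts of this complex, thus all had a base mean above 1000 in both experiments, while TAL1 was below 50.

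GATA2 (ENSG00000179348.11, chromosome 3, 128479427 to 128493201, minus strand), a zinc finger factor of stem cells and early progenitors, had base means of 3547 and 4327. Its level per kb was 722 in the knockdown experiment and 880.4 in the inhibitor experiment, 1.66 times that of LMO2 in each. With the longest transcripts these ratios were 1.54 and 1.55. GATA1, the erythroid and megakaryocytic member, was at a base mean of 25.9 and 50.7, and GATA3, a factor of T cells, at 3.13 and 2.01. ZFPM1, the cofactor that binds GATA proteins, was at 435 and 411. GATA2 shares 78 exon bases with GATA2-AS1 on the opposite strand, which was at 13.7 and 25.5. Of the 7 heptad genes, 5 had a base mean of at least 50 in each experiment. The others were TAL1 and ERG, the latter at 26.7 and 41.4, whereas FLI1, the ETS relative of ERG, was at 3851 and 3229.

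RUNX1 (ENSG00000159216.18, chromosome 21, 34787801 to 36004667, minus strand), the DNA-binding subunit of core binding factor, had base means of 5573 and 5322. CBFB (ENSG00000067955.15, chromosome 16, 67028984 to 67101058, plus strand), the subunit that does not bind DNA itself, had 5379.8 and 3784. The base means of the pair were close in the knockdown experiment, but RUNX1 has 15574 bases of summed exons and CBFB 4652. Per kb CBFB was at 1156 and 813 and RUNX1 at 358 and 342, so that CBFB was 3.23 times RUNX1 in the knockdown experiment and 2.38 times in the inhibitor experiment. With the longest transcripts these ratios were 2.24 and 1.65. RUNX3 was at 1144 and 830 per kb and RUNX2 at 179 and 263 per kb. The 3 RUNX genes summed to 1682 and 1435 per kb, of which RUNX1 made up 21.3% and 23.8%. With the longest transcripts these shares were 33.1% and 35.9%, and RUNX3 was above RUNX1 on both length scales in both experiments. Not divided by length, RUNX1 made up 43.97% and 46.02% of the summed base means, and RUNX3 was at 5633 and 4087, above RUNX1 in the knockdown experiment and below it in the inhibitor experiment. CBFA2T3, a corepressor of the ETO family, was at 1117 and 1429 per kb, and RUNX1T1, the ETO gene fused to RUNX1 in other leukaemias, was at base means of 1.47 and 3.09.

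MYB (ENSG00000118513.19, chromosome 6, 135181308 to 135219173, plus strand), a factor that progenitors need to proliferate, had base means of 11269 and 14042 and levels per kb of 2050.1 and 2555. It was highest among the 10 genes on both scales in both experiments, with summed exons as the length. With the longest transcript, LYL1 came before MYB in the inhibitor experiment, at 4056 against 3812 per kb. MYB shares 103 exon bases with MYB-AS1 on the opposite strand, which was at 2.66 and 7.85. MYBL2, a relative active in dividing cells, was higher than MYB at 9354 and 9717 per kb, and MYBL1 was at 16.6 and 15.4 per kb. EP300 and CREBBP, acetyltransferases that MYB recruits, were at 675 and 407 per kb in the knockdown experiment and at 422 and 259.8 per kb in the inhibitor experiment.

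IKZF1 (ENSG00000185811.19, chromosome 7, 50304068 to 50405101, plus strand), which encodes the zinc finger protein Ikaros, had base means of 7915 and 5958. Per kb it was at 725 and 546, and it made up 73.4% and 68.6% of the summed level per kb of the 5 Ikaros family genes. With the longest transcripts these shares were 81.2% and 77.5%, and not divided by length they were 83.6% and 80.0%. IKZF5 followed at 191 and 184 per kb, and IKZF2, IKZF3 and IKZF4 were between 9.78 and 37.7 per kb in the knockdown experiment. All 5 reached a base mean of 50 in each experiment. IKZF1 shares 110 exon bases with the long noncoding gene ENSG00000285165 on the opposite strand, listed at 0 in the knockdown experiment and at 0.582 in the inhibitor experiment.

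HHEX (ENSG00000152804.11, chromosome 10, 92689955 to 92695647, plus strand) and MEIS1 (ENSG00000143995.20, chromosome 2, 66433452 to 66573869, plus strand) both encode homeodomain proteins. HHEX had base means of 2816 and 3006, and with only 2522 bases of summed exons it stood at place 3 per kb among the 10 genes in both experiments, at 1117 and 1192. With the longest transcript as the length, HHEX was at place 4 in the knockdown experiment and at place 3 in the inhibitor experiment. MEIS1, a cofactor of HOX proteins in stem cells and in many acute myeloid leukaemias, had base means of 57.8 and 69.6, or 5.28 and 6.36 per kb. Its relative MEIS2 was at 34.3 and 31.2 per kb, so that MEIS1 made up 13.0% and 16.7% of the summed level of the 3 MEIS genes. Among the HOXA genes, HOXA9 was at a base mean of 39.2 and 52.7, HOXA5 at 9.67 and 20.4, and HOXA7 at 20.6 and 39.8, whereas HOXA10 was at 2020.3 and 1953. PBX2, which encodes a partner of MEIS and HOX proteins, was at 1836 and 1358. MEIS1 shares 1437 exon bases with MEIS1-AS2 on the opposite strand, which was listed at 0 in the knockdown experiment and at 0.908 in the inhibitor experiment.

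The ID genes encode helix-loop-helix proteins without a DNA-binding region, which take E-proteins away from factors such as TAL1 and LYL1. Of the 4, only ID2 had a base mean of at least 50, at 542 in the knockdown experiment and 98.4 in the inhibitor experiment. ID1 was at 9.24 and 16.2, ID3 at 1.09 and 3.42, and ID4 at 0.397 and 0.536.

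**Figure D2:**
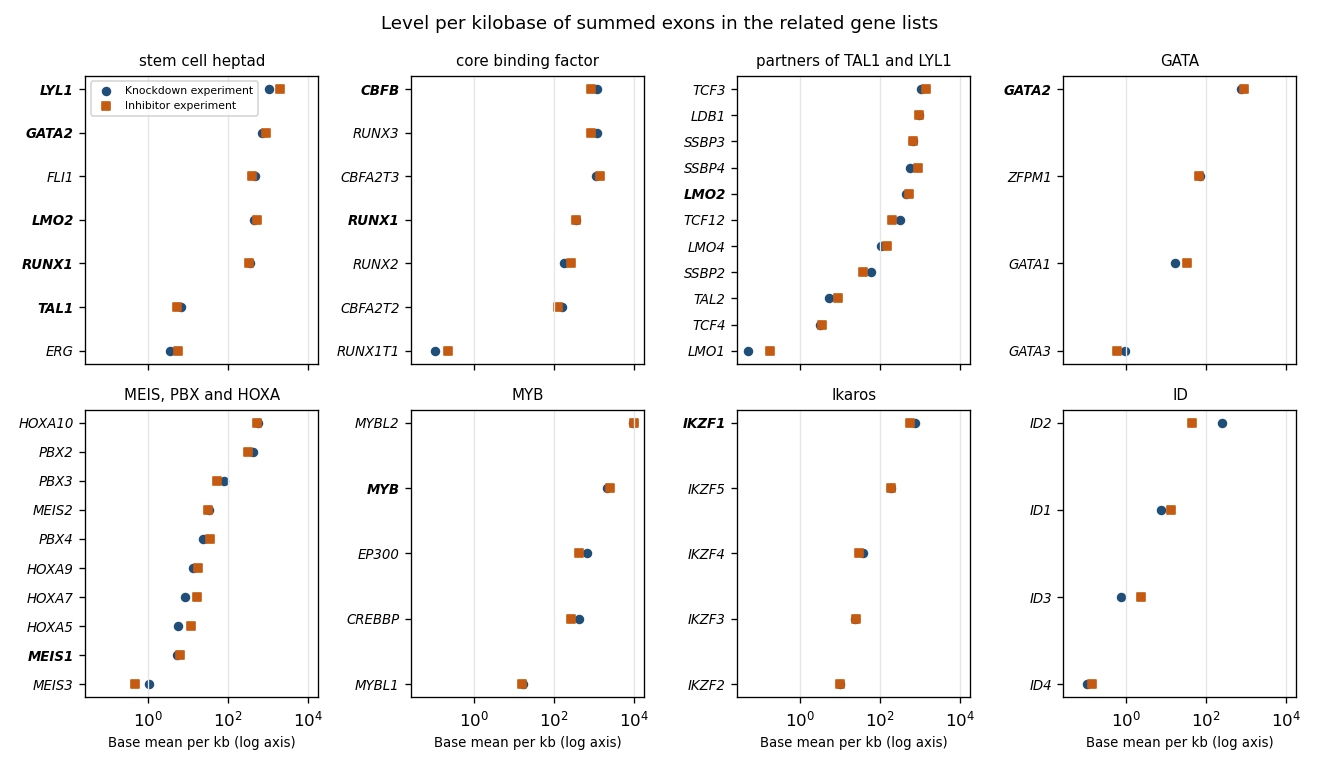
Base mean per kilobase of summed exons, on a log axis, for genes of 8 related lists, with a circle for the knockdown experiment and a square for the inhibitor experiment; members of the group of 10 are in bold, and a value of 0 (LMO1 in the knockdown experiment) is drawn at the left edge. LYL1 tops the heptad panel at 1060.2 and 2012 and TAL1 and ERG are at its foot, while CBFB, GATA2 and IKZF1 top their own panels in the knockdown experiment and MYBL2 lies above MYB.

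The experiments share no library, were normalised separately and differ in vector, time and treatment, so a difference in level between them cannot be assigned to any of these and has no replicate spread. The log2 ratio of the base means (inhibitor over knockdown experiment) had a median of -0.07 over the 10916 protein-coding genes that reached a base mean of 50 in both, and the ratios below are given relative to it. Over those genes the ratio had a standard deviation of 0.47, and its quartiles were -0.29 and 0.28. LYL1 had the largest ratio of the 10 genes, 0.99, and 1.04% of the 10916 genes had a larger one. MYB followed at 0.39, GATA2 at 0.36, LMO2 at 0.35 and MEIS1 at 0.34, each exceeded by between 17.5% and 21.1% of the genes. HHEX was at 0.16 and RUNX1 at 0.00. IKZF1 was at -0.34 and CBFB at -0.44. TAL1, below 50 in both experiments, was at -0.30. Of the 5 heptad genes that reached 50 in both experiments, LYL1, LMO2 and GATA2 lay above the median ratio, RUNX1 lay at it, and FLI1 lay below it at -0.19. In the order of the members LYL1 went from place 6 to place 2 and CBFB from place 4 to place 6. Other genes also differed in level between the experiments: the 5 promyelocyte markers at 50 or more all lay at or above the median, with AZU1 at 1.40 and PRTN3 at 0.86, and ID2 lay at -2.39. Their part in the ratios of the 10 genes was not tested.

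**Figure D3:**
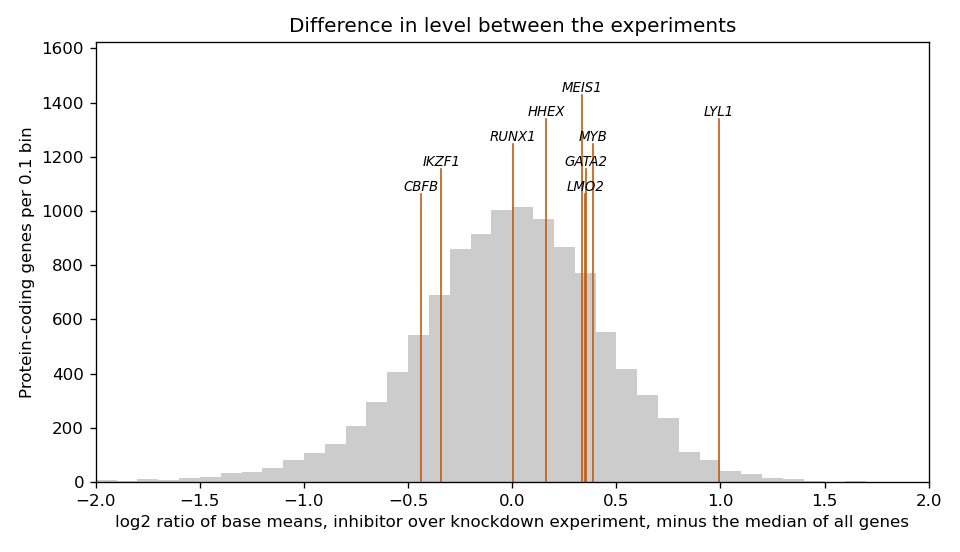
Number of coding genes (grey bars, 0.1 wide) by the log2 ratio of base means, inhibitor over knockdown experiment, minus the median of all genes; lines mark the 9 members that reached a base mean of 50 in both, at heights chosen for legibility, and the axis is cut at -2 and 2. LYL1 lies at 0.99 in the right tail, 4 members lie together between 0.34 and 0.39, and IKZF1 and CBFB lie left of 0 at -0.34 and -0.44.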

How the data were processed

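mRNA-seq libraries were made with a TruSeq kit from total RNA of 10 NB4 samples, which fall into 5 groups of 2 by their titles and treatment labels (titles write MC280 where the treatment label writes MC2580). Alignment to hg38 with STAR, gene counting with RSEM and a DESeq2 fit for each experiment were done by the authors. The submitters' processing notes name STAR 2.7 and FastQC 0.11.5. The annotation release is not given in the sources used here.

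From each deposited table only the base mean was used, the authors' signal value per gene: counts divided by DESeq2 size factors and averaged over libraries. The knockdown table gives it under each of 2 hairpin headings with the same value in every row, and it was taken as the mean over all libraries of the experiment, which the tables do not state. The other value columns hold the authors' own log2 fold changes, standard errors, Wald statistics and p-values for shA1 and shB2 against EV and for MC2580 against DMSO, and were not used. The test on counts planned for these comparisons was not run, since it needs counts per library, and depth per library is unknown. For this reason no confidence interval, floor or leave-one-out value was computed.

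Percentiles were taken among protein-coding genes listed above 0. Lengths came from GENCODE release 44 on GRCh38, in which 60306 of the 60603 gene identifiers matched by stable part and 99.6% of the protein-coding genes had a length. The minimum base mean was 50. Python 3.11.15, numpy 2.4.6 and pandas 2.3.3 were used, and the functions were tested on simulated data. Some genes of the lists are not reported here. The members and all lists and motifs were chosen with earlier results of these data known. Alternatives were other sets of ranked genes, other lengths, minimums and scalings, and a shorter promoter window.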

Additional observations from a re-analysis of the deposited data

How the results depend on the processing

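No paired analysis was possible because the base means are pooled over the libraries of an experiment, and for the same reason no replicate could be left out, no block or other tool could be tried, and no low-count filter applied to a test. The number of the 10 genes at the minimum base mean was 10 with a minimum of 10 and 8 with a minimum of 100, in both experiments. The share of all protein-coding genes at these other minimums is not reported here. Without centring, or with both tables scaled to the same sum of base means, the ratio of RUNX1 between the experiments turned from 0.00 to -0.067 and -0.090, and the other 9 genes kept their direction. The median log2 ratio of the 10 genes was 0.25, and between 0.16 and 0.25 under the alternatives. Percentiles moved with the genes ranked: among genes of all types LMO2 exceeded 82.4% in the knockdown experiment, among coding genes at 10 or more 53.9%, and per kb 77.8%, against 66.5% as reported. TAL1 went from 34.3% to 61.2%, 9.6% and 32.5% in the same settings. RUNX1 was at 74.4% per kb, against 91.0%, and IKZF1 at 85.8%, against 94.5%. HHEX rose to 90.9% per kb from 81.1%, and LYL1 to 90.3% from 83.7%, all in the knockdown experiment. With the longest transcript as the length, 11 of the 20 places in the order per length changed, and MEIS1 and TAL1 changed places in the knockdown experiment. No motif count changed by over 1.5 times when only the bases before the start were searched. Counting error of the low levels (TAL1, MEIS1, ERG and the HOXA genes other than HOXA10) cannot be given without depth.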

Other observations

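Lineage markers outside the myeloid group were uneven in these cultures. CD3D, which encodes a chain of the T-cell receptor complex, had an authors' base mean of 866 in the knockdown experiment and 869 in the inhibitor experiment, whereas CD3E was at 1.55 and 2.98, CD3G at 33.3 and 9.20, and CD2 at 13.1 and 4.33. Of the B-cell markers, CD79A, a chain of the B-cell receptor complex, was at 121 and 116, while PAX5 was at 31.9 and 16.4, and MS4A1 at 0.217 and listed at 0. ITGA2B, an integrin chain of megakaryocytes, was at 660 and 549, with PF4 listed at 0 in both experiments and GP9 listed at 0 and at 0.280. EPOR, the erythropoietin receptor gene, was at 218 and 229, with HBA1 listed at 0 in both, HBB at 11.7 and listed at 0, and KLF1 at 15.8 and 32.7. Of the genes named here for each of these 4 lineages, then, 1 reached a base mean of 50, and it did so in both experiments. What these levels rest on was not tested.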
